A study of Equus caballus with 9 samples.

Results

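The genes described here encode the nuclear subunits of oxidative phosphorylation: complexes I to IV of the mitochondrial respiratory chain, ATP synthase, and cytochrome c. A list of 49 symbols was matched to the probe sets for which the platform annotation names a single gene, and 39 were measured, of 16661 distinct genes named on the array. Each of the 39 had 1 probe set. The 10 others were not measured in this way: NDUFA2, NDUFA5, NDUFB6, SDHD, NDUFA4, COX6C, COX7B, COX7C, COX8A and ATP5F1C, the last of which appeared only on a probe set that names several genes.

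Complexes I and II take electrons from NADH and from succinate and pass them to ubiquinone, complex III hands them on to cytochrome c, and complex IV delivers them to oxygen. Complexes I, III and IV pump protons across the inner mitochondrial membrane, and ATP synthase uses the gradient to make ATP. Most subunits are encoded in the nucleus and imported, while a small core is encoded by mitochondrial DNA. Mesenchymal stem cells in culture are known to draw on glycolysis to a large extent, and respiratory activity is known to increase when they differentiate, for example into adipocytes.

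The study set horse cells from 3 sources beside each other on Affymetrix arrays, with 3 arrays per source. BM-MSC were bone marrow mesenchymal stem cells of untreated healthy horses. EA-ADSC were mesenchymal cells grown from peripheral blood mononuclear cells that were drawn 2 h after electroacupuncture, in which a current is passed between acupuncture needles. AD-MSC were mesenchymal stem cells from tailhead fat of untreated healthy horses. All were isolated with Ficoll-Paque, kept for 96 h on uncoated plastic in Ham's F-12 and low-glucose DMEM with 15% fetal bovine serum, and freed of non-adherent cells before RNA was taken. Blood cells of untreated horses, and marrow or fat cells of treated ones, are not among the groups, so tissue, treatment and horse cannot be told apart in comparisons with EA-ADSC. In AD-MSC against BM-MSC, tissue and horse, and any separate array run, cannot be told apart. No horse is named for the AD-MSC samples, and whether their arrays were run apart from the others is unknown here, as are the breed, sex and age of the horses.

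Each array gave a log2 intensity for 30559 probe sets, and the median of all values was 4.62. Within a group the arrays correlated at 0.961 to 0.982 across probe sets, and between groups at 0.936 to 0.965; probe sets are not independent replicates. All 14 mesenchymal markers had group means above the median of all values in the 3 groups. Yet 7 were lower (50%) and 1 higher (7.14%) in AD-MSC than in BM-MSC, against 3.25% and 2.83% of all probe sets. SPARC, a matrix glycoprotein, was lower by -3.56 log2 (adjusted p = 2.37e-04 in limma). In EA-ADSC 2 of the 14 were higher than in BM-MSC (14.3%) and 0 lower, against 0.35% and 0.465% of all probe sets. These were ALCAM (2.97 log2, adjusted p = 0.00336 in limma) and CD44 (0.90, 0.0282). The ALCAM call held in all 9 fits with 1 array left out, and that of CD44 was lost in 6. Against AD-MSC 7 were higher in EA-ADSC (50%) and 1 lower (7.14%), against 3.49% and 3.43%. The summed level of the 14 was 131.3 to 132.7 in BM-MSC, 129.5 to 133.6 in EA-ADSC and 117.6 to 120.5 in AD-MSC. Of 14 leukocyte markers measured, 5 had a group mean above that median in BM-MSC, 4 in EA-ADSC and 3 in AD-MSC, and PTPRC, the pan-leukocyte antigen CD45, was at 3.97 ± 0.57, 3.10 ± 0.10 and 3.14 ± 0.51 (SD, n = 3 arrays per group). TYROBP, a signalling adaptor of myeloid and natural killer cells, was at 7.01 ± 0.98, 4.74 ± 0.37 and 4.53 ± 0.06. It was lower in AD-MSC than in BM-MSC by -2.48 log2 (adjusted p = 0.0132 in limma, held in all 9 fits with 1 array left out). This 1 call was 7.14% of the list, against 3.25% of all probe sets. In EA-ADSC against BM-MSC 0 of the 14 were called, against 0.815% of all probe sets. In both AD-MSC and EA-ADSC 12 of the 14 leukocyte markers had a mean below that of BM-MSC. A mean above it was seen for 2 (14.3%), against 55.2% of all probe sets in AD-MSC and 51.6% in EA-ADSC. The summed level of the 14 was 62.8 to 68.8 in BM-MSC, 57.2 to 59.7 in EA-ADSC and 57.5 to 61.5 in AD-MSC. Of 8 endothelial markers the counts were 0, 1 and 0. The 39 genes were bright: their means over the 9 arrays ran from 7.62 to 12.08, and 88.8% of all probe sets lay below the dimmest of them. No filter on low values was applied, so all 39 were tested. A group's value is given as its mean log2 intensity ± SD over its arrays (n = 3), a difference of 1 on the log2 scale is a doubling, and a gene was called at an adjusted p below 0.05 in limma, with adjustment over all 30559 probe sets.

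In AD-MSC 5 of the 39 genes, 4 of complex I and 1 of complex II, were higher than in BM-MSC (12.8%), against 2.83% of all probe sets, and 0 were lower, against 3.25% of all probe sets. Against EA-ADSC, the calls again had AD-MSC as the higher group: 4 of the 39 genes were lower in EA-ADSC (10.3%), against 3.43% of all probe sets, and 0 were higher, against 3.49%. In EA-ADSC against BM-MSC limma called 0 of the 39, against 0.815% of all probe sets, and 3 (7.69%) had an unadjusted p below 0.05, against 11.7%. The comparisons of AD-MSC with BM-MSC and of EA-ADSC with AD-MSC share the AD-MSC arrays, so their results are not independent of each other. The F test over the 3 groups called 5 genes (12.8%), against 7.48% of all probe sets. With dim probe sets left out (not above 4.617 in at least 3 arrays) it called 15.4% of the 39, against 17.9% of the probe sets kept. Intensities come from whole cultures, in which fewer cells of a type and less RNA per cell cannot be told apart.

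**Figure D1:**
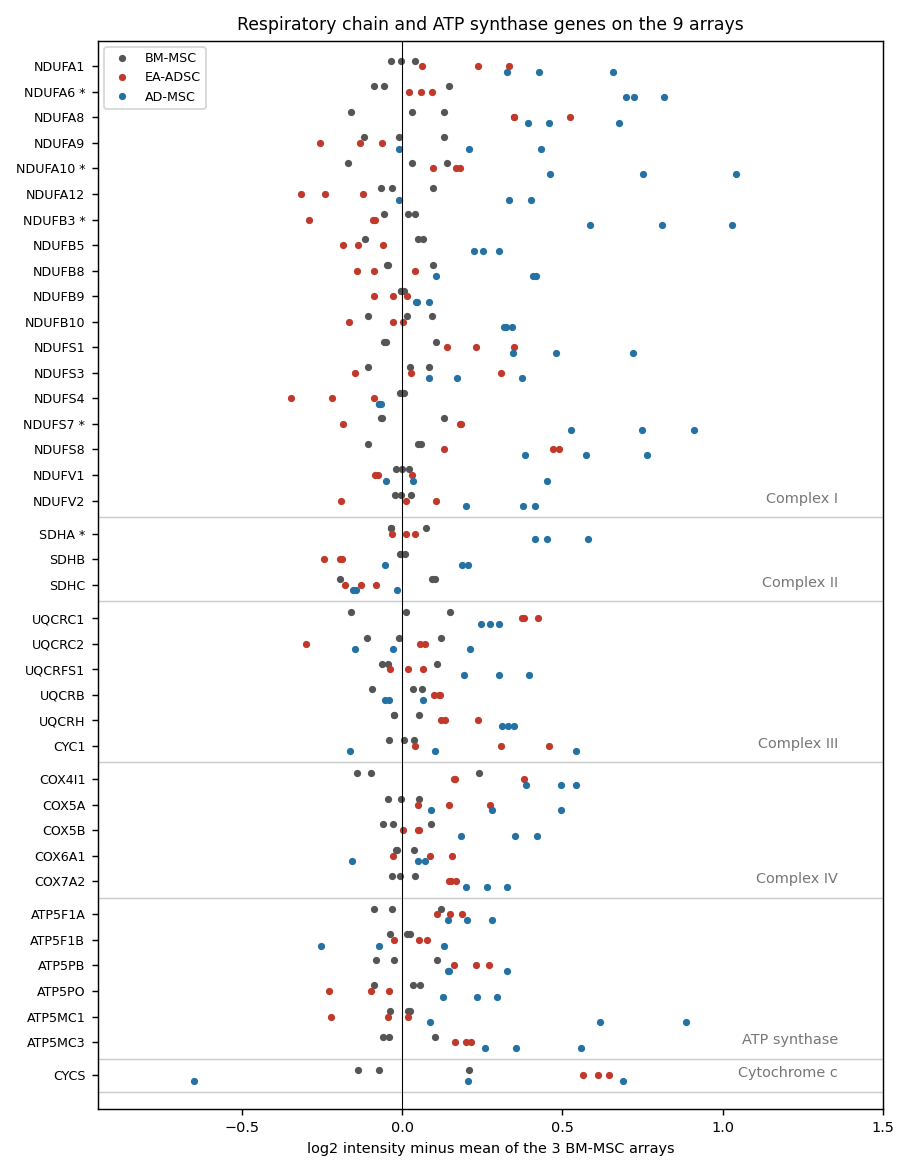
Log2 intensity of each of the 39 genes on each of the 9 arrays, minus the mean of the 3 BM-MSC arrays for that gene (horizontal axis), with 1 point per array and genes grouped by complex; an asterisk marks the 5 genes called in AD-MSC against BM-MSC or in EA-ADSC against AD-MSC. The AD-MSC points lie to the right of the BM-MSC points without overlap for 26 of the 39 genes.

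The shift reached well beyond the called genes but was small for most. In AD-MSC against BM-MSC the median log2 difference of the 39 genes was 0.27, with a range of -0.10 to 0.81, beside a median of 0.04 over all probe sets. Of the 39, 34 had a difference above 0, as had 55.2% of all probe sets, and 21 (53.8%) had an unadjusted p below 0.05, against 21.1%. All 3 AD-MSC arrays lay above all 3 BM-MSC arrays for 26 of the 39 genes (66.7%), against 14.0% of all probe sets, and below them for 1, NDUFS4, against 11.6%. In EA-ADSC against AD-MSC the median was -0.21, with a range of -0.97 to 0.53, beside -0.02 over all probe sets. A difference below 0 was seen for 32 genes, and for 53.2% of all probe sets, and 16 genes (41.0%) had an unadjusted p below 0.05, against 21.2%. The EA-ADSC arrays lay below all AD-MSC arrays for 22 genes (56.4%), against 12.7%, and above them for 2, against 10.8%. In EA-ADSC against BM-MSC the median was 0.06, with a range of -0.23 to 0.61, beside 0.01 over all probe sets. Here 24 genes had a difference above 0, beside 51.6% of all probe sets. The EA-ADSC arrays lay above all BM-MSC arrays for 12 genes (30.8%), against 9.52%, and below them for 4 (10.3%), against 8.87%.

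On single arrays the median of the 39 genes relative to the BM-MSC means was -0.04, 0.04 and -0.01 in BM-MSC replicates 1 to 3, 0.08, 0.06 and 0.03 in EA-ADSC, and 0.19, 0.42 and 0.30 in AD-MSC. Every AD-MSC array stood above the other 6, and EA-ADSC and BM-MSC overlapped. AD-MSC replicate 2 held the highest value of the 9 arrays for 26 of the 39 genes. That array also had the highest summed level of 7 adipocyte markers, at 44.8 against 36.9 and 41.0 in the other AD-MSC arrays, 32.7 to 34.9 in BM-MSC and 31.1 to 31.6 in EA-ADSC. Of these markers, 3 had a group mean above the median of all values in BM-MSC, 2 in EA-ADSC and 4 in AD-MSC. FABP4, a fatty acid carrier of adipocytes, was at 6.25, 11.27 and 8.14 in AD-MSC replicates 1 to 3, whereas ADIPOQ, which encodes the adipocyte hormone adiponectin, was near the median of all values, at 4.24, 4.97 and 4.49. CIDEC was higher in AD-MSC than in BM-MSC by 2.43 log2 (adjusted p = 0.0214 in limma), 14.3% of the list, against 2.83% of all probe sets. CIDEC, FABP4 and PPARG were lower in EA-ADSC than in AD-MSC by -2.39, -5.57 and -2.46 (0.0205, 0.0171 and 0.0242), 42.9%, against 3.43%. No marker was called in the opposite directions. In that order the calls were lost in 4, 4, 3 and 5 of 9 fits with 1 array left out. The mean level of 24 cell cycle genes was 5.57 to 5.88 in BM-MSC, 7.19 to 8.02 in EA-ADSC and 6.31 to 7.92 in AD-MSC. The part of the mesenchymal, leukocyte, adipocyte and cell cycle genes in the shift of the respiratory chain genes was not tested.

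**Figure D2:**
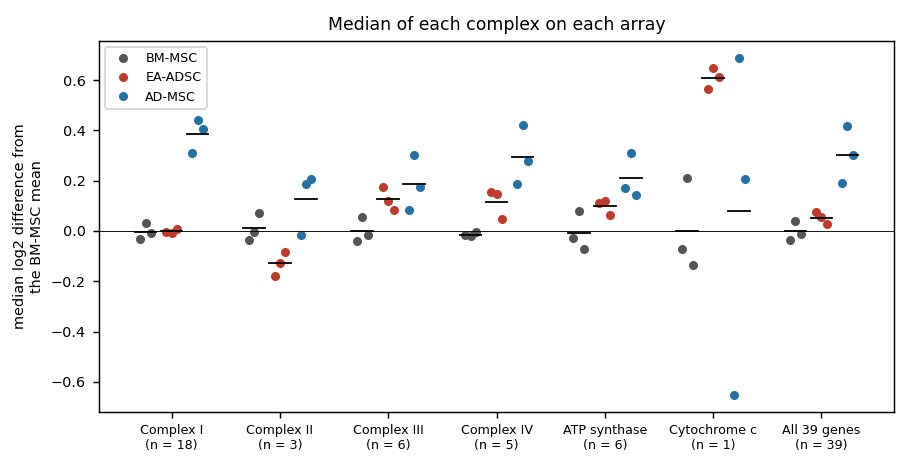
Median over the genes of each complex of the log2 intensity relative to the BM-MSC mean (vertical axis), with 1 point per array, a bar for the mean of the 3 arrays, and the number of genes under each name. Complex I in AD-MSC stood at 0.31 to 0.44 and did not overlap the other groups, whereas cytochrome c spread from -0.65 to 0.69 within AD-MSC.

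Complex I, the NADH dehydrogenase, held 18 of the 39 genes and 4 of the 5 calls in AD-MSC against BM-MSC. The 4 higher were 22.2% of the 18, against 2.83% of all probe sets, and 0 were lower, against 3.25%. Of the 18, 17 had a difference above 0 (94.4%, against 55.2% of all probe sets), with a median of 0.33 and a range of -0.07 to 0.81. All AD-MSC arrays lay above all BM-MSC arrays for 13 (72.2%, against 14.0%). They lay below them for 1, NDUFS4 (5.56%, against 11.6%). In EA-ADSC against AD-MSC all 18 had a difference below 0, with a median of -0.36. There 3 were called lower (16.7%) and 0 higher, against 3.43% and 3.49% of all probe sets. In EA-ADSC against BM-MSC 8 lay above 0 and 10 below, with a median of -0.03. Of its parts, the 6 measured core subunits, which carry the flavin and iron-sulfur clusters or build the ubiquinone site, had a median of 0.42 in AD-MSC against BM-MSC, and the 12 accessory subunits, which surround and stabilise the core, had 0.32.

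NDUFA6, an accessory subunit of the matrix arm, was called in AD-MSC against both other groups. It was at 10.21, 10.41 and 10.18 in BM-MSC replicates 1 to 3, at 10.29, 10.32 and 10.36 in EA-ADSC, and at 11.08, 10.96 and 10.99 in AD-MSC. The 3 AD-MSC arrays stood clear of the other 6, and EA-ADSC fell inside the BM-MSC range. AD-MSC were 1.68-fold higher than BM-MSC (0.75 log2, adjusted p = 0.0072 in limma), and EA-ADSC were lower than AD-MSC by a log2 difference of -0.69 (adjusted p = 0.00911). Both calls held in all 9 fits that left out 1 array.

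NDUFB3, an accessory subunit of the membrane arm, had the largest difference among the complex I genes measured. Its values were 9.59, 9.61 and 9.52 in BM-MSC, 9.28, 9.48 and 9.48 in EA-ADSC, and 10.16, 10.60 and 10.38 in AD-MSC. AD-MSC were again the highest group without overlap, and the EA-ADSC arrays lay just under the BM-MSC arrays. The gene was 1.75-fold higher in AD-MSC than in BM-MSC (0.81 log2, adjusted p = 0.0131 in limma) and lower in EA-ADSC than in AD-MSC by -0.97 log2 (adjusted p = 0.00543). The second call held in all 9 fits that left out 1 array, while the first was lost without BM-MSC replicate 1 (adjusted p = 0.0518) and without BM-MSC replicate 3 (0.0531).

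NDUFS7, a core subunit that carries the last iron-sulfur cluster before ubiquinone, was at 8.73, 8.73 and 8.93 in BM-MSC, at 8.98, 8.98 and 8.61 in EA-ADSC, and at 9.33, 9.71 and 9.54 in AD-MSC. The BM-MSC and EA-ADSC arrays overlapped, and all AD-MSC arrays were higher. It was 1.66-fold higher in AD-MSC than in BM-MSC (adjusted p = 0.03 in limma, up to 0.106 with 1 array left out, lost in 5 of 9 such fits). It was lower in EA-ADSC than in AD-MSC by -0.67 log2 (adjusted p = 0.0378, up to 0.109, lost in 8 of 9).

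NDUFA10, an accessory subunit at the membrane arm, was at 8.74, 8.94 and 9.05 in BM-MSC, at 9.09, 9.08 and 9.004 in EA-ADSC, and at 9.37, 9.95 and 9.66 in AD-MSC. AD-MSC were highest without overlap, with a spread wider than in the other groups. The gene was 1.68-fold higher in AD-MSC than in BM-MSC (0.75 log2, adjusted p = 0.0329 in limma, up to 0.114 with 1 array left out, lost in 7 of 9 fits). The difference of EA-ADSC from AD-MSC was -0.60 log2 and was not called (adjusted p = 0.0656).

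**Figure D3:**
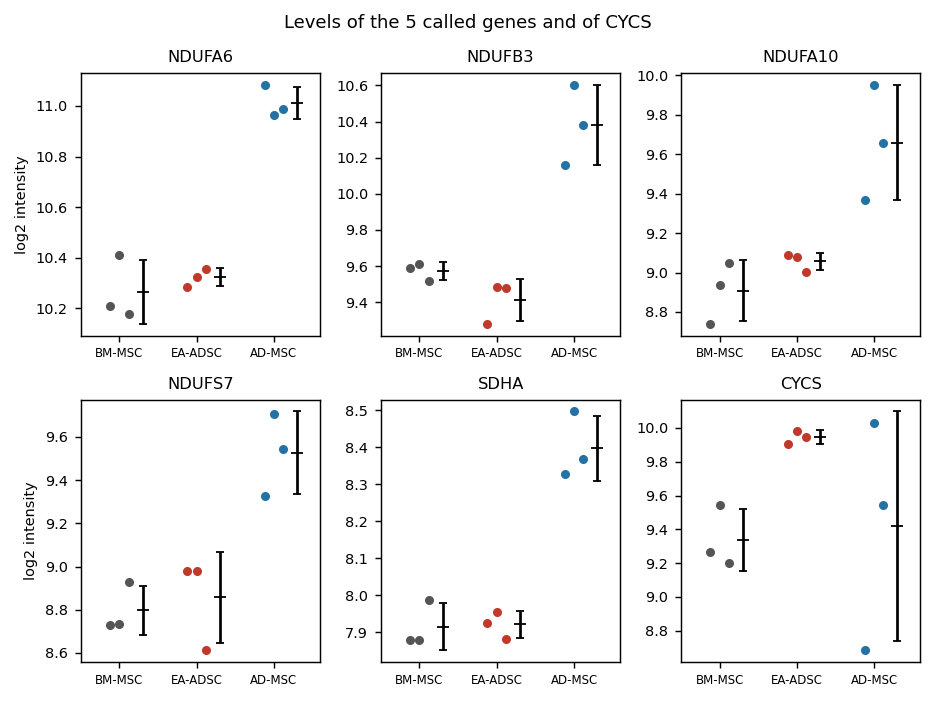
Log2 intensity (vertical axis, a separate scale in each panel that does not start at 0) of the 5 called genes and of CYCS in the 3 groups, with 1 point per array and the mean ± SD of the 3 arrays in black. AD-MSC stand above the other 6 arrays for the 5 called genes, and CYCS in AD-MSC runs from 8.69 to 10.03.

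The 14 complex I genes without a call ranged from small to moderate differences. Core subunits NDUFS1 and NDUFS8, both iron-sulfur proteins, had AD-MSC minus BM-MSC differences of 0.52 (adjusted p = 0.0602) and 0.57 (0.0625), with no overlap between the arrays. NDUFA1, needed for assembly of the membrane arm, was at 10.59 ± 0.04 in BM-MSC, 10.80 ± 0.14 in EA-ADSC and 11.06 ± 0.17 in AD-MSC. The flavoprotein NDUFV1, which accepts electrons from NADH, was at 7.85 ± 0.02, 7.81 ± 0.06 and 7.996 ± 0.27 in the same order, and its partner NDUFV2 was at 11.33 ± 0.03, 11.31 ± 0.15 and 11.66 ± 0.12. NDUFS3, a core subunit of the ubiquinone-binding part, was at 8.31 ± 0.10, 8.37 ± 0.23 and 8.52 ± 0.15. Levels of different genes are not comparable with each other on this array, so only differences between groups are read. None of these 6 was called in any comparison.

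The remaining accessory subunits of complex I were not called in any comparison either. NDUFB5, NDUFB8 and NDUFB10 of the membrane arm had AD-MSC minus BM-MSC differences of 0.26, 0.31 and 0.33, each without overlap. NDUFB9 was nearly level, with a difference of 0.06 on arrays that all read between 11.27 and 11.44. NDUFA9 and NDUFA12, of the matrix arm, had differences of 0.21 and 0.24 with overlapping arrays, and against AD-MSC the EA-ADSC arrays were lower without overlap, by -0.36 and -0.47. NDUFS4, an accessory subunit of the NADH-oxidising end, ran the other way: it was at 11.43 ± 0.01 in BM-MSC, 11.21 ± 0.13 in EA-ADSC and 11.36, 11.36 and 11.36 on the AD-MSC arrays, a difference of -0.07 (95% interval -0.32 to 0.18).

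NDUFA8, which faces the intermembrane space, was the complex I gene with the largest statistic in EA-ADSC against BM-MSC. It was at 9.81, 9.71 and 9.52 in BM-MSC, at 10.20, 10.03 and 10.03 in EA-ADSC, and at 10.07, 10.36 and 10.14 in AD-MSC. Both EA-ADSC and AD-MSC lay above BM-MSC without overlap, and they overlapped each other. The EA-ADSC minus BM-MSC difference was 0.41 (95% interval 0.11 to 0.71) and was not called (adjusted p = 0.252 in limma).

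Complex II, succinate dehydrogenase, also belongs to the tricarboxylic acid cycle and was measured by 3 of its 4 listed genes. SDHA, the flavoprotein that oxidises succinate, was at 7.88, 7.88 and 7.99 in BM-MSC, at 7.93, 7.95 and 7.88 in EA-ADSC, and at 8.33, 8.50 and 8.37 in AD-MSC. The means of BM-MSC and EA-ADSC differed by 0.01 log2, and AD-MSC stood apart. SDHA was 1.40-fold higher in AD-MSC than in BM-MSC (adjusted p = 0.0335 in limma, up to 0.117 with 1 array left out, lost in 7 of 9 fits) and lower in EA-ADSC than in AD-MSC by -0.48 log2 (adjusted p = 0.032, up to 0.0978, lost in 8 of 9).

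The other complex II genes did not share the pattern of SDHA as called. SDHB, the iron-sulfur subunit, was at 9.73, 9.73 and 9.74 in BM-MSC, at 9.54, 9.54 and 9.49 in EA-ADSC, and at 9.68, 9.92 and 9.94 in AD-MSC. Its EA-ADSC arrays were the lowest without overlap, and its EA-ADSC minus BM-MSC difference was -0.21 (95% interval -0.46 to 0.05, adjusted p = 0.549 in limma). SDHC, a membrane anchor, was at 11.36 ± 0.17, 11.23 ± 0.05 and 11.26 ± 0.08 in BM-MSC, EA-ADSC and AD-MSC.

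Complex III, the cytochrome bc1 complex, had 6 genes measured and no call. Its median differences were 0.22 in AD-MSC against BM-MSC, 0.02 in EA-ADSC against AD-MSC and 0.14 in EA-ADSC against BM-MSC. In EA-ADSC against AD-MSC 3 of the 6 lay above 0 and 3 below, from -0.28 to 0.12. The EA-ADSC arrays lay above all AD-MSC arrays for 2 genes (33.3%, against 10.8% of all probe sets). They lay below them for 2 others (33.3%, against 12.7%). UQCRC1, a core protein, was at 8.86, 9.04 and 9.18 in BM-MSC, at 9.45, 9.41 and 9.40 in EA-ADSC, and at 9.33, 9.30 and 9.27 in AD-MSC. The order was EA-ADSC, AD-MSC, BM-MSC without overlap, with a difference of 0.39 between the first and the last (95% interval 0.13 to 0.65, adjusted p = 0.195 in limma).

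UQCRH, the hinge protein that helps cytochrome c dock, was at 11.68, 11.76 and 11.68 in BM-MSC, at 11.94, 11.83 and 11.84 in EA-ADSC, and at 12.06, 12.04 and 12.02 in AD-MSC. The 3 groups were separate, and the AD-MSC minus BM-MSC difference was 0.33 (adjusted p = 0.0975). UQCRFS1, the Rieske iron-sulfur protein, was at 10.63, 10.78 and 10.61 in BM-MSC, at 10.74, 10.69 and 10.63 in EA-ADSC, and at 10.86, 11.07 and 10.97 in AD-MSC. AD-MSC were highest without overlap, and the EA-ADSC minus AD-MSC difference was -0.28 (adjusted p = 0.19). UQCRC2, the second core protein, had differences of at most 0.07 in size between any groups. UQCRB, a ubiquinone-binding subunit, was at 11.55 ± 0.08 in BM-MSC, 11.66 ± 0.01 in EA-ADSC and 11.54 ± 0.06 in AD-MSC. CYC1, cytochrome c1, was at 8.71 ± 0.04, 8.98 ± 0.21 and 8.87 ± 0.36 in the same order. Its EA-ADSC arrays all lay above its BM-MSC arrays, with a difference of 0.27.

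Complex IV, cytochrome c oxidase, had 5 of 10 listed genes measured and no call. Its nuclear subunits surround a catalytic core encoded by mitochondrial DNA. The median difference was 0.29 in AD-MSC against BM-MSC, -0.13 in EA-ADSC against AD-MSC and 0.16 in EA-ADSC against BM-MSC. COX4I1, the subunit through which ATP is known to regulate the enzyme, was at 11.21, 10.87 and 10.83 in BM-MSC, at 11.35, 11.13 and 11.13 in EA-ADSC, and at 11.46, 11.51 and 11.35 in AD-MSC. BM-MSC replicate 1 lay inside the EA-ADSC range, and all AD-MSC arrays were above all BM-MSC arrays. The AD-MSC minus BM-MSC difference was 0.47 (95% interval 0.16 to 0.79, adjusted p = 0.0899 in limma), and that of EA-ADSC from BM-MSC was 0.23 (adjusted p = 0.607).

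COX5B, a subunit on the matrix side, was at 11.76, 11.91 and 11.79 in BM-MSC, at 11.87, 11.87 and 11.82 in EA-ADSC, and at 12.005, 12.24 and 12.17 in AD-MSC. AD-MSC were highest without overlap, and the EA-ADSC minus AD-MSC difference was -0.28 (adjusted p = 0.185). COX7A2, the widely expressed form of a small membrane subunit, was at 11.94 ± 0.04, 12.10 ± 0.01 and 12.20 ± 0.06 in BM-MSC, EA-ADSC and AD-MSC, with the 3 groups separate. COX5A was at 11.09 ± 0.05, 11.25 ± 0.11 and 11.38 ± 0.20. COX6A1 was level, at 10.74 ± 0.03, 10.81 ± 0.09 and 10.73 ± 0.13.

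ATP synthase had 6 of 7 listed genes measured and no call, with medians of 0.21, -0.13 and 0.09 in AD-MSC against BM-MSC, EA-ADSC against AD-MSC and EA-ADSC against BM-MSC. The genes ATP5MC1 and ATP5MC3 encode the same mature c subunit, which forms the rotating ring. ATP5MC1 was at 10.02, 10.08 and 10.07 in BM-MSC, at 9.83, 10.01 and 10.07 in EA-ADSC, and at 10.14, 10.94 and 10.67 in AD-MSC. The AD-MSC arrays differed widely yet all lay above the other arrays. The EA-ADSC minus AD-MSC difference was -0.61 (adjusted p = 0.108 in limma) and was called without AD-MSC replicate 1 (-0.84, adjusted p = 0.016).

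ATP5MC3 was at 11.69, 11.84 and 11.68 in BM-MSC, at 11.94, 11.95 and 11.90 in EA-ADSC, and at 11.99, 12.29 and 12.09 in AD-MSC. The 3 groups were separate, and the AD-MSC minus BM-MSC difference was 0.39 (adjusted p = 0.0985). ATP5PB, of the peripheral stalk, was at 10.78, 10.92 and 10.73 in BM-MSC, at 11.08, 11.04 and 10.97 in EA-ADSC, and at 10.95, 11.13 and 10.95 in AD-MSC. Here EA-ADSC and AD-MSC overlapped and BM-MSC were lowest, with a difference of 0.22 for EA-ADSC (95% interval -0.04 to 0.48, adjusted p = 0.518). ATP5PO, which links the stalk to the catalytic head, was at 11.70 ± 0.08, 11.58 ± 0.10 and 11.92 ± 0.08 in BM-MSC, EA-ADSC and AD-MSC. The catalytic head gave no call either. ATP5F1A, its alpha subunit, was at 11.83 ± 0.11, 11.98 ± 0.04 and 12.04 ± 0.07, and ATP5F1B, its beta subunit, at 11.64 ± 0.03, 11.68 ± 0.05 and 11.58 ± 0.19.

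CYCS, cytochrome c, carries electrons from complex III to complex IV and triggers caspase activation when it leaves the mitochondrion. It was at 9.27, 9.55 and 9.20 in BM-MSC, at 9.90, 9.98 and 9.95 in EA-ADSC, and at 8.69, 10.03 and 9.54 in AD-MSC. EA-ADSC were tightly grouped above all BM-MSC arrays, and the AD-MSC arrays spanned both other groups. The EA-ADSC minus BM-MSC difference was the largest of the 39 genes in that comparison, 0.61 (95% interval -0.07 to 1.28, adjusted p = 0.496 in limma). It was the only one of the 39 whose interval there reached beyond a 2-fold change. The AD-MSC minus BM-MSC difference was 0.08 and became -0.22 without AD-MSC replicate 2.

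The number of genes called depended on single arrays and on the probe sets tested. In AD-MSC against BM-MSC the 5 calls became 1 without BM-MSC replicate 1 or 3, 2 without BM-MSC replicate 2, AD-MSC replicate 2 or AD-MSC replicate 3, 3 without EA-ADSC replicate 2 or 3, and 8 without AD-MSC replicate 1. In EA-ADSC against AD-MSC the 4 calls became 2 (NDUFA6 and NDUFB3) without any 1 of the arrays other than AD-MSC replicate 1, and 7 without that array. Of all probe sets, 1.16% to 3.44% were called higher in the first comparison and 1.80% to 3.37% lower in the second in these fits. With dim probe sets left out of the fit, which kept all 39 genes, 9 were higher in AD-MSC than in BM-MSC, against 6.26% of the probe sets kept, and 7 were lower in EA-ADSC than in AD-MSC, against 7.25%. With 1 array left out the median of the 39 genes moved less, between 0.25 and 0.33 in the first comparison and between -0.29 and -0.17 in the second.

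Further subunits of the same complexes, a list of 31 genes of which 22 were measured, gave 1 gene higher in AD-MSC than in BM-MSC (4.55%, against 2.83% of all probe sets) and 2 lower in EA-ADSC than in AD-MSC (9.09%, against 3.43%). NDUFB1, a small membrane subunit of complex I, was at 10.88, 10.87 and 10.84 in BM-MSC, at 10.69, 10.71 and 10.78 in EA-ADSC, and at 11.25, 11.43 and 11.45 in AD-MSC. It was higher in AD-MSC than in BM-MSC by 0.51 log2 (adjusted p = 0.0274, up to 0.0952 with 1 array left out, lost in 5 of 9 such fits) and lower in EA-ADSC than in AD-MSC by -0.64 (adjusted p = 0.00994, held in all 9 fits with 1 array left out). ATP5MC2, the third gene for the c subunit, was lower in EA-ADSC than in AD-MSC by -1.38 (adjusted p = 0.0321, up to 0.0856, lost in 6 of 9), on arrays at 8.82, 10.05 and 10.05 against 11.02, 11.06 and 10.99. The medians of the list were 0.18, -0.18 and -0.03 in AD-MSC against BM-MSC, EA-ADSC against AD-MSC and EA-ADSC against BM-MSC. Of the 13 proteins encoded by mitochondrial DNA only ND1, a core subunit of complex I, was measured, at 12.06 ± 0.08, 12.12 ± 0.12 and 12.31 ± 0.12 in BM-MSC, EA-ADSC and AD-MSC, with no call.

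Of 7 genes measured from a list of alternative isoforms and related factors, none was called, although 1 differed widely. NDUFA4L2, a relative of the complex IV subunit NDUFA4 known to be induced by hypoxia, was at 10.24, 10.25 and 10.05 in BM-MSC, at 9.06, 10.35 and 4.65 in EA-ADSC, and at 5.47, 5.20 and 5.60 in AD-MSC. BM-MSC and AD-MSC did not overlap, 2 EA-ADSC arrays were near BM-MSC, and EA-ADSC replicate 3 was below AD-MSC. The AD-MSC minus BM-MSC difference of -4.76 had an adjusted p = 0.0556 in limma, whose estimate of the spread includes the EA-ADSC arrays. The other 6 genes measured from this list, among them COX4I2 and COX7A2L, gave no call either.

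Assembly factors, which build the complexes without being part of them, gave 3 genes higher in AD-MSC than in BM-MSC (6.82% of 44 measured, against 2.83% of all probe sets) and 6 of the 44 lower in EA-ADSC than in AD-MSC (against 3.43%), with no call in the opposite directions. PET100, a complex IV assembly factor, was at 10.40 ± 0.02 in BM-MSC, 10.22 ± 0.07 in EA-ADSC and 10.91 ± 0.07 in AD-MSC (adjusted p = 0.0236 against BM-MSC, lost in 4 of 9 fits with 1 array left out, and 0.00612 against EA-ADSC, held in all 9). SCO2, which supplies copper to complex IV, was at 6.59 ± 0.04, 6.56 ± 0.21 and 7.32 ± 0.27 in the same order and called in both comparisons (0.0411 and 0.0312, up to 0.125 and 0.1, each lost in 7 of 9 such fits). NDUFAF6 was higher in AD-MSC than in BM-MSC by 0.71 log2 (0.0414, up to 0.137, lost in 8 of 9). In EA-ADSC against AD-MSC the complex I factors NUBPL and NDUFAF3 were lower by -1.07 (0.0203) and -0.53 (0.0224), and COX16, of complex IV, by -1.001 (0.0258). These calls were lost in 4, 3 and 3 of 9 such fits, with adjusted p up to 0.0722, 0.0750 and 0.0805.

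**Figure D4:**
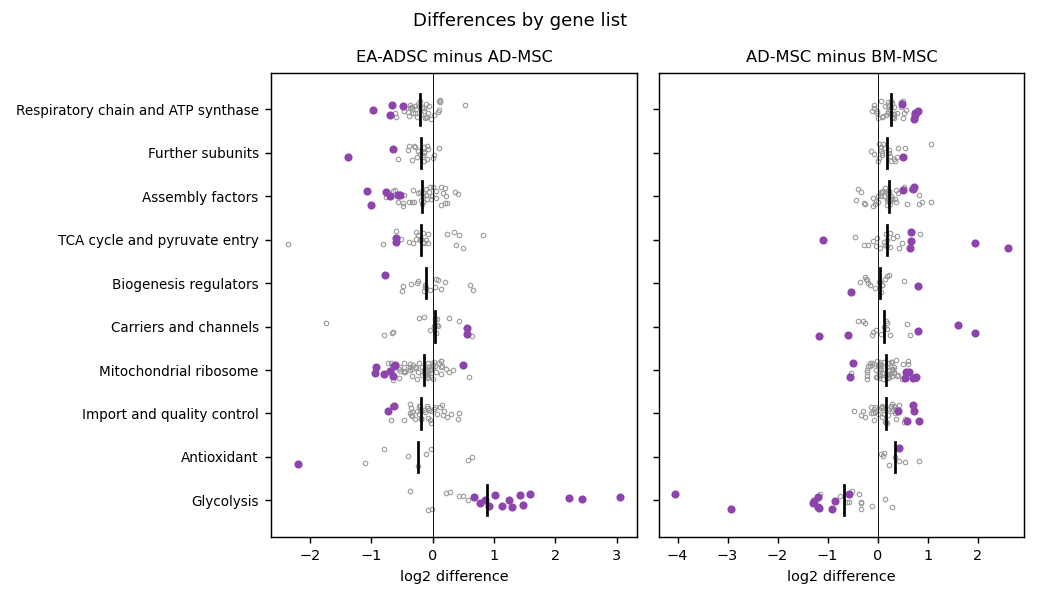
Log2 differences of the genes of each list (points, filled where called) with the list's median (bar), in EA-ADSC against AD-MSC (left) and AD-MSC against BM-MSC (right). The respiratory chain and the mitochondrial lists shown have medians above 0 in AD-MSC against BM-MSC, whereas glycolysis has a median of -0.68 there. The median of the biogenesis regulators, 0.04, is level with the 0.04 of all probe sets. In EA-ADSC against AD-MSC carriers and channels have a median of 0.04, and the other mitochondrial lists have medians below 0.

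Both subunits of the mitochondrial pyruvate carrier were called in AD-MSC against BM-MSC. The carrier, built of MPC1 and MPC2, brings pyruvate into mitochondria. MPC1 was at 8.58, 9.13 and 8.85 in BM-MSC, at 9.76, 10.06 and 10.14 in EA-ADSC, and at 10.33, 10.89 and 11.16 in AD-MSC. The 3 groups were separate, with AD-MSC 3.84-fold above BM-MSC (adjusted p = 0.00291 in limma). The EA-ADSC differences were 1.13 from BM-MSC (adjusted p = 0.0785) and -0.81 from AD-MSC (0.0852). MPC2 was at 10.21, 10.35 and 10.34 in BM-MSC, at 10.39, 10.35 and 10.34 in EA-ADSC, and at 10.96, 10.93 and 10.97 in AD-MSC. It was higher in AD-MSC than in BM-MSC (0.66 log2, adjusted p = 0.00804) and lower in EA-ADSC than in AD-MSC (-0.60, 0.0111). These 3 calls held in all 9 fits with 1 array left out.

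In all, 5 of 25 measured genes of the tricarboxylic acid cycle and pyruvate entry were higher (20.0%) and 1 lower (4%) in AD-MSC than in BM-MSC. The shares of all probe sets were 2.83% and 3.25%. In EA-ADSC against AD-MSC 2 were lower (8%), against 3.43%. Citrate synthase, CS, was higher in AD-MSC than in BM-MSC by 0.67 log2 (adjusted p = 0.03, up to 0.112 with 1 array left out, lost in 5 of 9 such fits). The kinases that switch off pyruvate dehydrogenase were called in opposite directions: PDK1 was at 9.48 ± 0.28 in BM-MSC and 8.39 ± 0.28 in AD-MSC (adjusted p = 0.0273, up to 0.0907, lost in 5 of 9), whereas PDK4 was at 2.82 ± 0.15 and at 6.93, 5.35 and 3.99 on the AD-MSC arrays (0.044). The PDK4 level in BM-MSC was under the median of all values, and its call was lost in 7 of 9 fits with 1 array left out. IDH3G, of the cycle's isocitrate dehydrogenase, was lower in EA-ADSC than in AD-MSC by -0.60 (0.034, up to 0.101, lost in 8 of 9).

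Among 22 glycolysis genes, 0 were higher and 10 lower (45.5%) in AD-MSC than in BM-MSC, against 2.83% and 3.25% of all probe sets. In EA-ADSC against AD-MSC 14 were higher (63.6%) and 0 lower, against 3.49% and 3.43%. The medians of the list were -0.68 and 0.89. PGK1, phosphoglycerate kinase, was at 12.07, 12.03 and 12.06 in BM-MSC, at 12.26, 12.29 and 12.08 in EA-ADSC, and at 10.70, 10.83 and 10.80 in AD-MSC. BM-MSC and EA-ADSC lay together and AD-MSC were far below (-1.28 against BM-MSC, adjusted p = 5.36e-04 in limma). ALDOA, TPI1 and the lactate exporter SLC16A3 were lower in AD-MSC than in BM-MSC by -1.18, -1.18 and -2.93. In EA-ADSC against BM-MSC the median of the list was 0.07. There limma gave 0 calls, against 0.815% of all probe sets, and 5 genes (22.7%) had an unadjusted p below 0.05, against 11.7%.

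**Figure D5:**
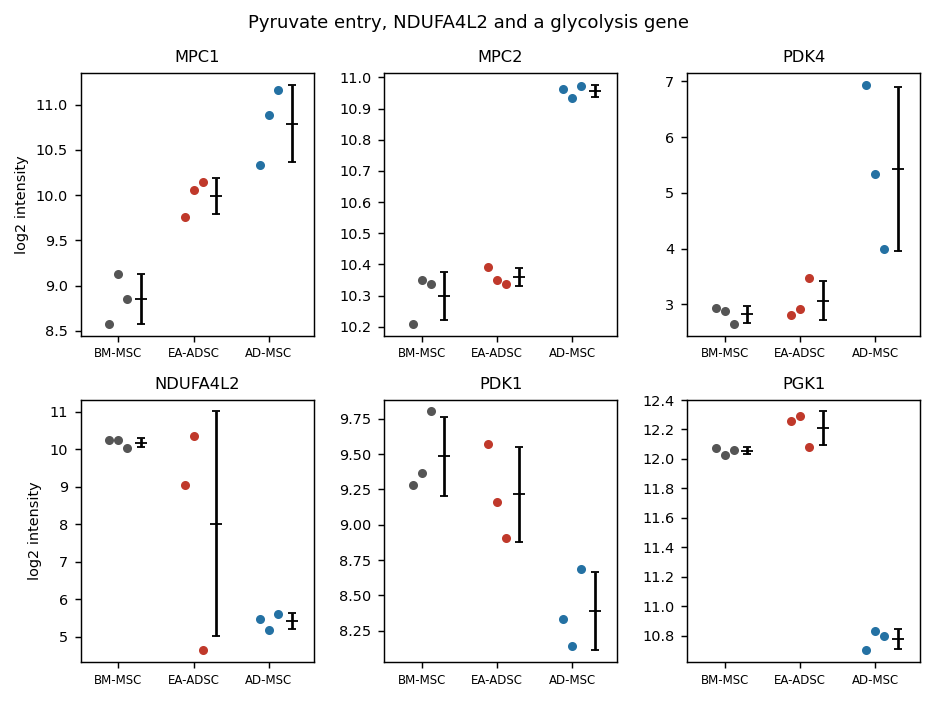
Log2 intensity (vertical axis, a separate scale in each panel that does not start at 0) of MPC1, MPC2, PDK4, NDUFA4L2, PDK1 and PGK1 in the 3 groups, with 1 point per array and the mean ± SD of the 3 arrays in black. MPC1 and MPC2 are highest in AD-MSC, PGK1 is lowest there, and EA-ADSC replicate 3 is at 4.65 for NDUFA4L2.

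Of 67 mitochondrial ribosomal proteins, 5 were higher (7.46%) and 2 lower (2.99%) in AD-MSC than in BM-MSC, against 2.83% and 3.25% of all probe sets. In EA-ADSC against AD-MSC 1 was higher (1.49%) and 7 lower (10.4%), against 3.49% and 3.43%. The 2 lower in the first comparison and the 1 higher in the second were under the shares of all probe sets. Of the 7 calls in the first comparison 0 held in all 9 fits with 1 array left out, and of the 8 in the second 2 did. MRPL45 was at 7.59 ± 0.10, 7.29 ± 0.05 and 8.21 ± 0.07 in BM-MSC, EA-ADSC and AD-MSC (adjusted p = 0.014 for AD-MSC against BM-MSC and 0.00234 for EA-ADSC against AD-MSC), the first lost without BM-MSC replicate 1 (adjusted p = 0.0618) and the second held in all 9 fits with 1 array left out. Of 41 import and quality control genes, 5 were higher in AD-MSC than in BM-MSC (12.2%, against 2.83% of all probe sets). The import chaperone TIMM9 (0.72, adjusted p = 0.0116) was the only 1 of these 5 calls that held in all 9 such fits. In EA-ADSC against AD-MSC 2 were lower (4.88%, against 3.43%), and 0 of these calls held in all 9. Of 18 regulators of mitochondrial gene expression, SSBP1, which binds single-stranded mitochondrial DNA, was higher in AD-MSC than in BM-MSC by 0.80 (0.0329), and the mitochondrial DNA helicase TWNK lower by -0.53 (0.0423). Each was 5.56% of the list, against 2.83% of all probe sets higher and 3.25% lower. SSBP1 was also lower in EA-ADSC than in AD-MSC (-0.78, 0.0336), again 5.56% of the list, against 3.43%. These 3 calls were lost in 7, 8 and 8 of 9 fits with 1 array left out, with adjusted p up to 0.109, 0.130 and 0.0998.

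Of 19 carriers, channels and other donors of electrons to ubiquinone, 3 were higher (15.8%) and 2 lower (10.5%) in AD-MSC than in BM-MSC. The shares of all probe sets were 2.83% and 3.25%. SQOR, which feeds electrons from sulfide to ubiquinone, was at 10.04 ± 0.08 in BM-MSC, 9.50 ± 0.24 in EA-ADSC and 8.86 ± 0.32 in AD-MSC (adjusted p = 0.0092 for AD-MSC against BM-MSC, held in all 9 fits with 1 array left out). SLC25A13, an aspartate and glutamate carrier, was higher in AD-MSC by 1.61 (0.0224), UCP2, of the uncoupling protein family, by 1.95 (0.0372) and ETFA, which passes electrons from fatty acid oxidation, by 0.81 (0.0374). These calls were lost in 3, 8 and 8 of 9 such fits, with adjusted p up to 0.0716, 0.121 and 0.112. The outer membrane channels VDAC2 and VDAC3 were higher in EA-ADSC than in AD-MSC by 0.56 (0.0344) and 0.57 (0.0395), 10.5% of the list, against 3.49% of all probe sets. VDAC3 was lower in AD-MSC than in BM-MSC by -0.60 (0.0352). These calls were lost in 7, 8 and 7 of 9 such fits, with adjusted p up to 0.109, 0.124 and 0.121.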

How the data were processed

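RNA from 9 cultures (100 ng each) was amplified, labelled with biotin and hybridised, per the labels' protocols. Partek 6.16.0419, Transcriptome Analysis Console 3 and Affymetrix Expression Console were used, per the submitters' processing notes. The sources used here give neither the summarization of probes nor the normalization. The values deposited by the authors are log2 intensities, and they were used as deposited. The platform annotation names 1 gene for 16789 of 30559 probe sets, several for 343 and none for 13427.

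A group-means model over all 9 arrays was fitted with limma 3.58.1 in R 4.3.3 (lmFit and eBayes, 6 residual degrees of freedom), with two-sided moderated tests and Benjamini-Hochberg adjustment over all probe sets. The procedure was run on simulated data with independent normal noise, which does not cover shared horses or effects common to an array. The brightest probe set of a gene was used. The gene lists were described by counts and medians, not tested. The genes and lists were chosen with earlier results of these data known. Every array is given for called genes and, per complex and comparison, for the gene with the largest statistic; for further lists up to 4 called genes were named. Groups of 3 arrays limit the precision. Marrow and blood replicates are labelled as different horses. The series describes 3 adipose donors without labelling which sample is whose, so if samples shared a horse, p-values there would measure partly technical spread. Alternatives were quantile normalization, median centring, leaving out dim probe sets (not above 4.617 in at least 3 arrays), limma-trend, array weights, a block for the replicate number, testing 1 probe set per gene, fits of the compared groups alone, and leaving out each array.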

Additional observations from a re-analysis of the deposited data

How the results depend on the processing

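No called difference among the 39 genes changed sign in any setting, and NDUFA6 was called in AD-MSC against BM-MSC, and NDUFA6 and NDUFB3 in EA-ADSC against AD-MSC, in every fit run. Counts of called genes among the 39 moved more. In AD-MSC against BM-MSC the 5 became 9 with dim probe sets left out, 15 with limma-trend, 11 with 1 probe set per gene, and 2 in a fit of these groups alone, beside 6.26%, 3.31%, 5.15% and 1.82% of all probe sets fitted that were called higher. In EA-ADSC against AD-MSC the 4 became 7, 10, 8 and 2 in the same settings, beside 7.25%, 3.88%, 5.89% and 1.62% called lower. In the F test of the 3 groups the 5 became 2 with median centring and 12 with limma-trend, beside 7.19% and 8.48%. With dim probe sets left out the F test called 15.4% of the 39, against 17.9% of the probe sets kept. With 1 probe set per gene it called 15.4%, against 15.2%. With median centring and with a replicate block it called 5.13%, against 7.19% and 5.71%. It also called 5.13% without BM-MSC replicate 3, EA-ADSC replicate 1 or AD-MSC replicate 2, against 5.16%, 6.17% and 6.88%. The F test showed no clear excess in any of these settings. Whether the replicate numbers pair samples of different groups is not settled by the values. Residuals of such arrays correlated at -0.02 to 0.12 with the same number and at -0.12 to 0.04 with different numbers. Under a replicate block the counts were 3, 2 and 2 in AD-MSC against BM-MSC, EA-ADSC against AD-MSC and the F test, beside 2.38%, 2.61% and 5.71%. With 1 array left out the counts ran from 1 to 8, 2 to 7 and 2 to 5 in that order, and the medians from 0.25 to 0.33 in AD-MSC against BM-MSC, from -0.29 to -0.17 in EA-ADSC against AD-MSC and from 0.03 to 0.07 in EA-ADSC against BM-MSC. In EA-ADSC against BM-MSC limma called 0 in each setting, with 3 at an unadjusted p below 0.05 in the fit reported. The cause of these shifts was not tested, beyond fewer probe sets or arrays entering the fits named for them. Each gene had 1 probe set, so averaging probe sets changed nothing. Background signal was not used here, so how far dim probe sets such as PDK4 in BM-MSC stand above it is not known.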

Other observations

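Mitochondrial and other antioxidant genes gave 3 calls among 9 measured, each in a different comparison. A single call was 11.1% of the list, against 0.35% of all probe sets higher in EA-ADSC than in BM-MSC. Of all probe sets, 3.43% were lower in EA-ADSC than in AD-MSC and 2.83% higher in AD-MSC than in BM-MSC. GLRX2, a glutaredoxin, was at 9.66, 9.44 and 9.60 in BM-MSC, at 10.85, 10.22 and 10.61 in EA-ADSC, and at 9.99, 10.01 and 9.96 in AD-MSC. The EA-ADSC arrays were the highest without overlap, 1.99-fold above BM-MSC (adjusted p = 0.0384 in limma, up to 0.152 with 1 array left out, lost in 7 of 9 such fits). CAT, the peroxide-degrading enzyme catalase, was at 7.34, 7.38 and 7.67 in BM-MSC, at 6.14, 6.00 and 6.14 in EA-ADSC, and at 9.28, 7.74 and 7.86 in AD-MSC. EA-ADSC were lowest without overlap, by -2.20 log2 from AD-MSC (adjusted p = 0.00994, held in all 9 fits with 1 array left out). SOD1, the copper and zinc superoxide dismutase, was higher in AD-MSC than in BM-MSC by 0.44 log2 (adjusted p = 0.0495), a call lost in all 9 fits with 1 array left out (adjusted p = 0.0622 to 0.161).

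Of 292 measured genes of the respiratory chain and mitochondrial lists, 2 spanned more than 2 log2 units among the 3 arrays of a group. These were NDUFA4L2 in EA-ADSC, with a span of 5.70, and PDK4 in AD-MSC, with a span of 2.94. For NDUFA4L2 the array that stood apart was EA-ADSC replicate 3, and for PDK4 the 3 AD-MSC arrays were spread out.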
